A study of Mus musculus with 24 samples.

Results

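Growth hormone leaves the pituitary of male mice in pulses, with little hormone between them, while females release it more evenly. Each pulse acts on the receptor Ghr of the liver cell, the kinase Jak2 and the transcription factor Stat5b, and the genes that need the pulses are, for the most part, those that the male liver expresses more than the female liver. The 8 genes followed here (Hsd3b5, Cyp4a12a, Cyp4a12b, Cyp7b1, Cyp2d9, Elovl3, Serpina1e and Nudt7) belong to this male programme. Their name comes from that background, as no hormone was measured. They were chosen from the change between young and aged livers of these same arrays, so all of their liver values are a description and carry no test. They are 8 of 22911 gene symbols on the array, read by 11 probes, with 2 probes each for Cyp7b1, Serpina1e and Nudt7.

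RNA was compared between 10-week-old (10W) and 90-week-old (90W) mice in liver, kidney, lung and white adipose tissue (WAT), all from C57BL/6J males, with 3 mice for each age and tissue. The aged livers carry the numbers 1, 2 and 4. Each of the 24 samples was hybridized to a Cy3 Agilent mouse array. A level is the log2 signal minus the 75th percentile of its array, so that 0 is the level that 1 in 4 probes exceed, and levels of different probes cannot be set against each other. On each array 58.6% to 71.1% of the probes were well above background, and arrays of a group correlated between 0.942 and 0.995. A gene was called changed at a Benjamini-Hochberg adjusted p under 0.05 in limma. The tissues matched their labels by the median level of defining markers. The 12 hepatocyte markers had medians of 7.85 to 8.52 on liver arrays and at most 2.11 elsewhere. For the 4 kidney markers these were 6.22 to 8.10 and at most -3.00. The 4 lung markers had 8.43 to 9.03 and at most -3.95, and the 4 fat markers 6.17 to 7.24 and at most 1.54. All 12 hepatocyte markers were well above background on all 6 liver arrays, and all 4 kidney markers on all 6 kidney arrays. Both sets were also detected in full on some arrays of other tissues. In such bulk RNA, fewer cells of a type and less RNA per cell cannot be told apart.

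The promoters of the gene that was lowest in the aged livers, Hsd3b5, and of the one that differed least, Serpina1e, are shown from 250 bases before to 50 after the start site, as RefSeq gives them on GRCm38.p6. Capitals mark ATTGAT, the core bound by HNF6 (Onecut1), a partner of Stat5b in male liver.
Hsd3b5, chr3:98645485-98645784, minus strand: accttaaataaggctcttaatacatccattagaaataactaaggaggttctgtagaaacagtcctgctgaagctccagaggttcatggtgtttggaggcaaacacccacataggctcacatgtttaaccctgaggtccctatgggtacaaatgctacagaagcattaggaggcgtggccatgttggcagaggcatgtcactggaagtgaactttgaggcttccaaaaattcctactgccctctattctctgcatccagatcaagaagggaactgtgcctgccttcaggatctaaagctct
Serpina1e, chr12:103956848-103957147, minus strand: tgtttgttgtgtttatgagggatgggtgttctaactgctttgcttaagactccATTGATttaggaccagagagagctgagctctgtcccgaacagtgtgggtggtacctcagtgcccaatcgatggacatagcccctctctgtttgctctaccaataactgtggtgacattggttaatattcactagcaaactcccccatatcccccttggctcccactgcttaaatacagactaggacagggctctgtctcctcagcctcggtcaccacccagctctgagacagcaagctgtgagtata
Entries were present for 4 of the 8 genes (also Cyp2d9 and Nudt7). None of them held the Stat5 motif TTCNNNGAA on either strand, which 8.3% of 32851 promoters of 300 bases held. ATTGAT, on either strand, was found once, in Serpina1e, 197 bases before the start, and in 7.54% of all promoters. Cyp4a12a, Cyp4a12b, Cyp7b1 and Elovl3 were not searched.

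Hsd3b5, a steroid reductase of the male liver, had levels of 5.91, 6.13 and 5.35 in the young livers. In the aged livers they were -2.73, -5.55 and 2.76 (replicates 1, 2 and 4), and replicate 2 was not well above background. The aged livers thus lay below all young ones but far from each other. Against the young mean, Hsd3b5 was 369-fold lower in replicate 1, at least 1742-fold lower in replicate 2 and 8.19-fold lower in replicate 4. The mean difference of -7.64 was the lowest of the 27906 genes tested in the liver.

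The fatty acid hydroxylase Cyp4a12a had levels of 5.83, 6.18 and 6.05 in young livers and -0.48, -3.70 and 3.67 in aged ones. Its neighbour and close paralog Cyp4a12b had 6.15, 6.39 and 6.34 in young and -0.33, -3.31 and 4.01 in aged livers. These 2 probes moved as one. Their difference stayed between 0.15 and 0.39 on all 6 liver arrays and between 0.20 and 0.35 on the kidney arrays, so shared signal between the paralogs was possible and they are not independent genes here. The mean differences were -6.19 and -6.17.

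Elovl3, which elongates very long-chain fatty acids, had levels of 6.52, 6.61 and 4.85 in young livers and -2.45, -3.22 and 3.77 in aged ones, a mean difference of -6.63. It was the only one of the 8 with a young SD near 1 (0.99, n = 3), since young replicate 3 lay lower. Nudt7, a peroxisomal enzyme that cleaves coenzyme A, had 7.66, 7.69 and 7.57 in young livers and 3.84, 3.04 and 5.40 in aged ones. Its difference of -3.55 stood against a young SD of 0.062 (n = 3), and its other probe gave -3.73.

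Cyp2d9, a testosterone hydroxylase, had levels of 7.79, 8.05 and 7.75 in young livers and 4.88, 4.02 and 6.77 in aged ones, a difference of -2.64. Cyp7b1, the oxysterol hydroxylase of the alternative bile acid pathway, had 5.65, 5.85 and 6.14 in young livers. Its aged levels were 3.91, 3.83 and 5.50, and the last of these lay close under the lowest young liver. The difference was -1.47, and -1.67 by its other probe. Serpina1e, an antitrypsin gene of the male liver, had 10.36, 10.15 and 10.24 in young and 9.53, 9.94 and 9.67 in aged livers, a difference of -0.54. This depended on the scaling: it was -0.37 with spike-in scaling and -0.11 after centring on hepatocyte markers. Before any scaling, its processed signal was 341969, 349187 and 348170 in young livers. In aged livers it was 331232, 332564 and 354732, so the ages overlapped. The 4 other Serpina1 genes tested had differences of -0.64 to -0.49, and probes of such near-identical genes may read each other.

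**Figure D1:**
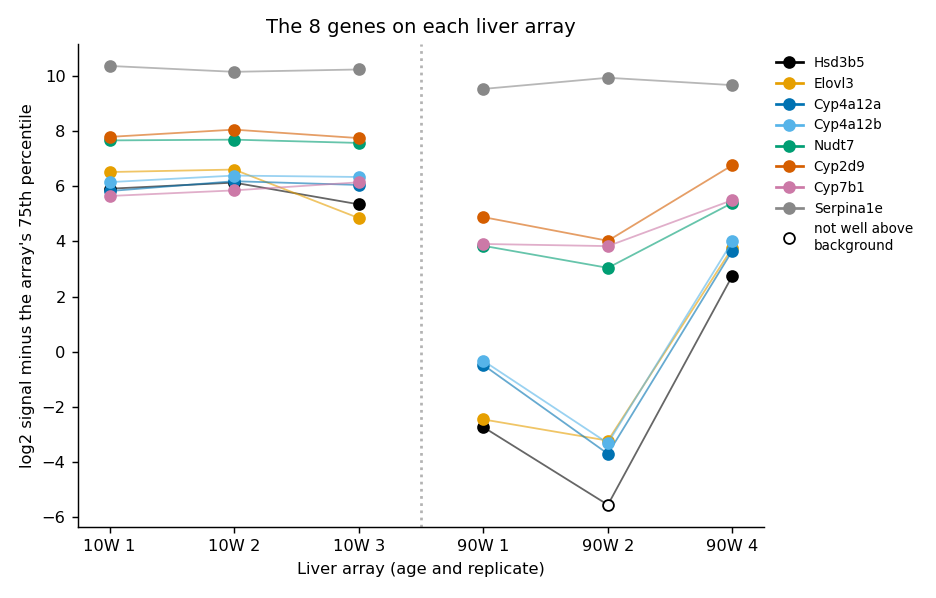
Levels (log2 signal minus the array's 75th percentile) of the 8 genes on each of the 6 liver arrays; lines join arrays of one age only to guide the eye, and the open point was not well above background. In 7 genes replicate 2 is the lowest and replicate 4 the highest of the aged livers, while Serpina1e stays between 9.53 and 10.36.

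The genes were low together on the same arrays. In 7 of the 8, all but Serpina1e, the aged livers kept one order, with replicate 2 lowest, replicate 1 between and replicate 4 highest. That order held in 23.8% of all genes tested and in 37.3% of the genes called lower with age. The median over the 8 genes, each relative to its young mean, was -5.15 in replicate 1, -6.91 in replicate 2 and -2.23 in replicate 4. The same median over all genes tested lay between -0.23 and -0.13. The SD between aged livers was 4.23 for Hsd3b5, 3.84 for Elovl3, 3.70 for Cyp4a12a and 3.68 for Cyp4a12b, and over 99.9% of the genes tested had a smaller one. It was 0.21 for Serpina1e, a value that 36.6% of the genes stayed under. In the fit, 7 of the 8 were past the threshold as lower, beside 17% of all genes tested. All 8 had every aged liver below every young one, beside 33.1% of all genes. Both counts follow from how the genes were chosen.

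Aged replicate 2 stood apart in other genes as well. Its neutrophil markers had a median of 8.84 above the young mean, against 3.02 in replicate 1 and 2.41 in replicate 4, and all 7 were well above background on every aged liver. The summed level of these 7 was 10.6 in replicate 2, 4.80 and 4.30 in the other aged livers and 2.11 to 3.24 in the young. The 12 acute phase genes, secreted by the liver in inflammation, had medians of 0.65, 2.08 and 0.35 above the young mean in replicates 1, 2 and 4, and 9 of them had the reverse order of the 8 genes, with replicate 4 lowest and replicate 2 highest. The serum amyloid gene Saa1 had 9.97 in replicate 2 against 6.52 and 6.23 in the other aged livers. In young replicate 3 Saa1 was 7.87, above its level in aged replicates 1 and 4, and Hsd3b5 was 5.35. Hsd3b5 levels were 5.91 and 6.13 in the other young livers. The part of inflammation in the levels of the 8 genes was not tested. Without replicate 2 the difference was -5.78 for Hsd3b5, -4.42 for Cyp4a12a, -5.33 for Elovl3 and -3.02 for Nudt7. The hepatocyte markers had medians of -0.57, -0.12 and -0.29 in replicates 1, 2 and 4. Of these 12 markers, 3 were called lower (Ttr, Cps1 and Ass1).

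**Figure D2:**
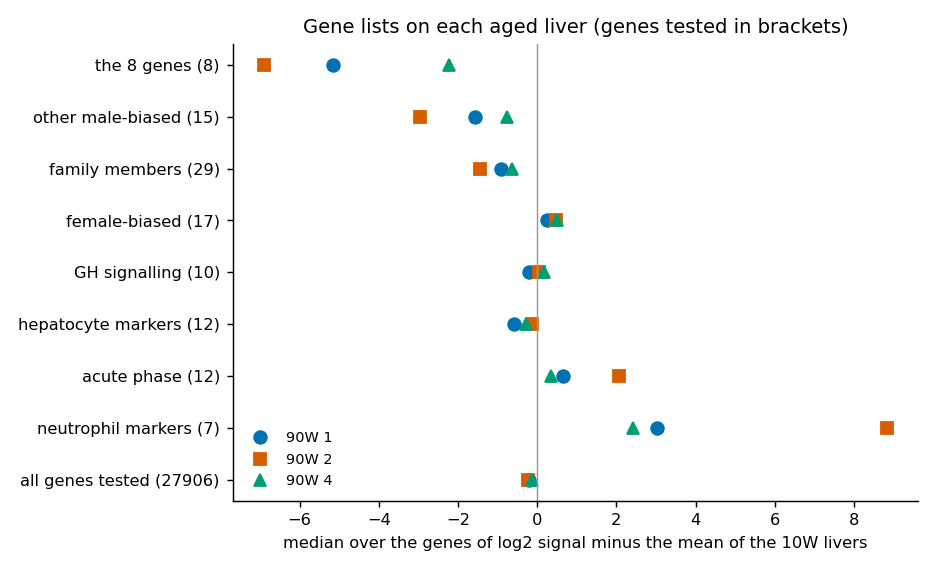
Median over the genes of each list of the log2 signal minus the mean of the young livers, for the aged livers 1 (circles), 2 (squares) and 4 (triangles). The 8 genes lie at -5.15, -6.91 and -2.23, the neutrophil markers at 3.02, 8.84 and 2.41, and all genes tested between -0.23 and -0.13.

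The rest of the male programme was examined with a list of 17 other male-biased liver genes, of which 15 were tested. All 15 had a mean below the young mean, with a median of -1.90 beside -0.20 over all genes tested. Of these, 5 fell past the threshold, beside 17% of all genes tested, and none rose. Ugt2b1, a glucuronosyltransferase, fell by 2.63 (SE 0.69, adjusted p = 0.0336 in limma). Gstp1, a glutathione transferase, fell by 2.27 (SE 0.45, adjusted p = 0.0148), Cyp2u1 fell by 1.93 and Selenbp2 fell by 1.26. The largest differences did not pass. The organic anion transporter Slco1a1 had 3.72, 3.81 and 3.84 in young livers and 1.21, -3.63 and 2.95 in aged ones (adjusted p = 0.108), and Cyp8b1, which sets the hydroxylation of bile acids, had a difference of -3.28 (adjusted p = 0.0522). The order of the aged livers seen in the 8 genes was found in 10 of the 15, beside 23.8% of all genes. Without aged replicate 4, 10 of the 15 were called lower, beside 15.9% of all genes. Leaving out aged replicate 2 gave 5, beside 9.66%, with a median of -1.07. Without young replicate 1 or 2 it was 2 each time, beside 4.33% and 3.57% of all genes.

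Of 22 female-biased genes listed, 17 were tested, with 6 called higher and 3 called lower, and a median of 0.43. Among all genes tested 10.5% were called higher and 17% lower. Higher calls came to 6, 5, 7 and 6 under quantile normalization, spike-in scaling, hepatocyte-marker centring and the fit of all 24 arrays. Each of these called 1 lower, Hamp2 each time. Of all genes, in the same order, 11.6%, 9.85%, 16.7% and 13.3% were called higher, and 13.7%, 3.06%, 2.2% and 28% lower. Cyp3a44, a steroid and drug hydroxylase, did not stand well above background on a young array and had -1.46, 1.90 and -2.92 in the aged ones, at least 14.2-fold higher (adjusted p = 0.0173). It entered the test through the aged arrays alone. Cyp2b13 rose by 3.95 (SE 0.58, adjusted p = 0.00626), Cyp2b9 by 2.85 and the neurotrophin receptor Ntrk2 by 2.04. In the other direction, Hamp2, a hepcidin gene, fell by 4.32 (SE 0.85), Cyp3a16 by 1.34 and Cyp2c69 by 0.56. Its 3 aged levels, 1.61, -0.12 and 2.91, put Hamp2 in the order of the 8 genes, which 2 of the 17 female-biased genes shared. Of those not called, Cyp3a41a and Cyp2g1 had the largest differences, -0.93 (adjusted p = 0.0541) and -0.67. Without young replicate 1 or 2 the calls came to 5 and 4, none of them lower. Of all genes, 6.34% and 5.36% were then called higher and 4.33% and 3.57% lower.

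**Figure D3:**
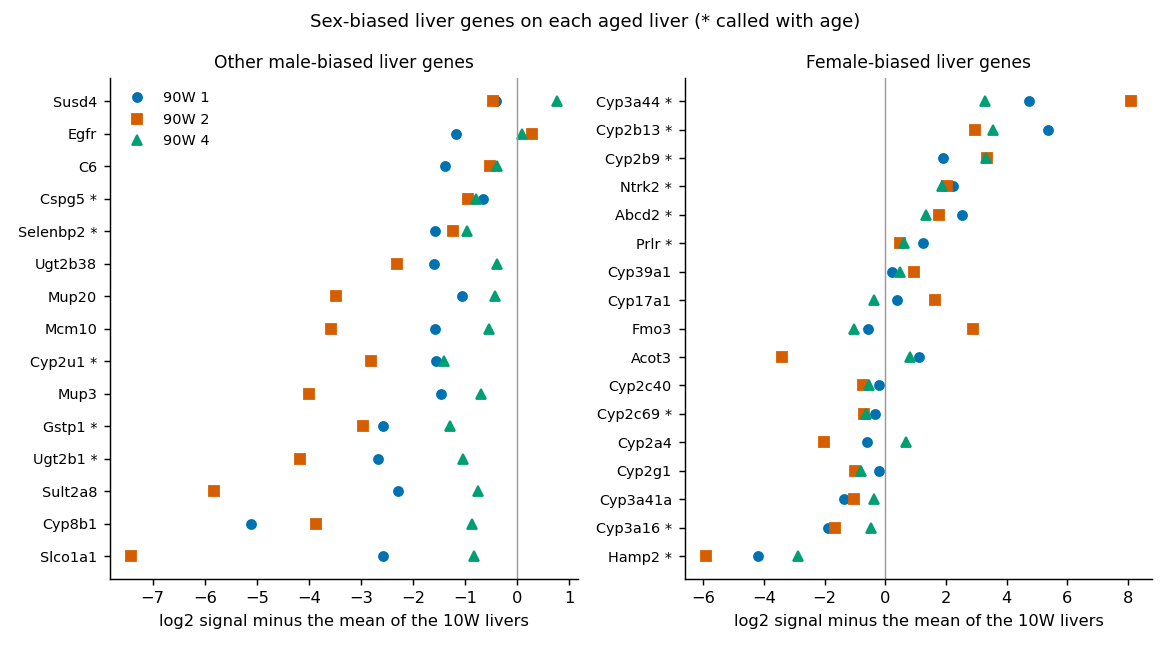
Log2 signal minus the mean of the young livers for each male-biased (left) and female-biased (right) gene tested, by aged liver; stars mark the 5 and 9 genes called with age. The squares of replicate 2 are farthest left in 11 of the 15 male-biased genes, and Slco1a1 is the lowest of them on average.

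Of the 10 growth hormone signalling genes, 2 fell, Stat5a by 0.94 (SE 0.24, adjusted p = 0.0305 in limma) and Igfals, the carrier subunit of circulating Igf1, by 0.73 (SE 0.22, adjusted p = 0.046). None rose, the median was 0.01, and the 2 of 10 stand beside 17% of all genes called lower. Both calls were lost under quantile normalization and without any one mouse other than young replicate 2, where Stat5a remained. With spike-in scaling Socs1 alone was called, as higher, beside 9.85% of all genes. Hepatocyte-marker centring gave 0 lower and 2 higher, beside 2.2% and 16.7% of all genes. The fit of all 24 arrays gave 1 lower and 2 higher, beside 28% and 13.3%. Normexp background gave 2 lower and 1 higher, beside 23.4% and 9.12%. Without aged replicate 4, 1 signalling gene was called lower and 1 higher, beside 15.9% and 9.73%. The receptor Ghr had 5.32, 5.40 and 5.25 in young livers and 4.32, 4.26 and 5.36 in aged ones, with replicate 4 among the young values (difference -0.68, adjusted p = 0.133). Stat5b, the member that the male pattern depends on, differed by -0.22 (adjusted p = 0.427), and the growth factor Igf1 by -0.44 (adjusted p = 0.0891). The feedback inhibitors Socs2 and Cish differed by 0.24 and 0.38, with overlapping ages. Socs3, which inflammation also induces, reached 4.67 in aged replicate 2 against 2.79 and 2.33 in the other aged livers.

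Among 10 regulators of sex-biased genes, 2 were called, both higher, beside 10.5% of all genes. Cux2, a female-specific repressor of male genes, likewise lacked a young array well above background and had -0.07, -0.50 and -4.55 in the aged ones, at least 7.70-fold higher (adjusted p = 0.0436). It too entered the test through the aged arrays alone, and it was not called with no filter. Among the aged livers it was highest in replicate 1 and lowest in replicate 4, where the lowest signal well above background was -5.03. Its part in the levels of the 8 genes was not tested. The oestrogen receptor Esr1 rose by 1.29 (SE 0.31, adjusted p = 0.0267). The list had 0 calls without young replicate 2, without aged replicate 2 and by the methods' t-test. It had 1 with normexp background, with no filter and without young replicate 1, aged replicate 1 or aged replicate 4, and 1 each way with the replicate block. Hepatocyte-marker centring gave 3 higher and the fit of all 24 arrays 4, beside 16.7% and 13.3% of all genes called higher. In the settings with 0 or 1 higher, 3.83% to 9.73% of all genes were called higher. Bcl6, a male-biased repressor, had -0.83 (adjusted p = 0.327), with young levels from 1.52 to 3.92 that enclosed 2 of the 3 aged ones.

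The enzyme families of the 8 genes were followed in their other members. Of 33 listed, 29 were tested, 16 fell, beside 17% of all genes tested, none rose, and the median was -0.93. The order of the aged livers was that of the 8 genes in 19 of the 29, and in 11 after centring on hepatocyte markers, where 8.63% of all genes had it. In the Hsd3b family 4 of 5 fell, from -2.13 for Hsd3b1 to -1.65 for Hsd3b7, a bile acid enzyme. Cyp4a31 and Cyp4a10, peroxisomal proliferator-responsive hydroxylases, fell by 2.93 and 2.82, and Cyp2d34 by 2.92. In the Cyp2d family 6 of 8 fell. Of the Elovl family only Elovl5 of 5 did (-1.43), and Cyp7a1, the rate-limiting enzyme of the classical bile acid pathway, had a difference of 0.03 (adjusted p = 0.980). Among those not called were Cyp4a14 (-1.70) and Hsd3b2 (-1.36). Probes of close paralogs may read each other in these families. The number called was 8 with spike-in scaling, beside 3.06% of all genes called lower, and 5 after centring on hepatocyte markers, beside 2.2%. It was 2, 1 and 8 without young replicates 1, 2 and 3, beside 4.33%, 3.57% and 11.6% of all genes called lower. Without aged replicate 1 it was 6, beside 9.41%.

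Elovl3 is also under the circadian clock. Of 13 clock genes tested, Nr1d1 fell by 2.42 and Clock by 1.20, and Per2 rose by 1.78. Neither fall was called without any one young liver, without aged replicate 2, after centring on hepatocyte markers or by the methods' t-test. Per2 was not called without young replicate 2, aged replicate 1 or aged replicate 4. Nor was it called with the mean of probes, the replicate block or the methods' t-test. In the young livers Arntl (Bmal1) ran from -2.35 to 1.60, with its lowest level in replicate 3, the array where Elovl3 was also lowest. The time of day of collection is not given in the sources used here, and its part was not tested.

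The genes most like the median profile of the 8 over the 6 liver arrays, by root mean square difference among 16356 other genes with a symbol, were Gm21286 (0.27), Pax2 (0.73), Gm12718 (0.78) and the carboxylesterases Ces2b (0.81) and Ces2c (0.84). Gm21286 was well above background on 2 of the aged livers and Gm12718 on 1, so their values rest in part on dim spots. Pax2, a developmental transcription factor, had 5.42, 5.66 and 5.66 in young livers and -1.26, -1.78 and 3.08 in aged ones. It was also the closest to Hsd3b5 (1.80), ahead of Cfd (2.08, well above background on 1 aged liver) and Syt10 (2.24), with Hsd3b5 itself dim in replicate 2. Of the chromosome neighbours that were tested and not among the 8, Cyp2d10, Pitx3 and Adamts18 were called lower. They lie next to Cyp2d9, Elovl3 and Nudt7, and 17% of all genes tested were called lower. Armc1, Nolc1 and Serpina11, beside Cyp7b1, Elovl3 and Serpina1e, differed by -0.28, -0.06 and 0.11 and were not called. Hsd3b2 beside Hsd3b5 (-1.36) and Serpina1c beside Serpina1e (-0.52) were not called either.

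Across tissues all 8 genes were highest in young liver, where every array lay above every array of the other tissues. Tissue and slide cannot be told apart, as each tissue was run on a slide of its own. The gap between the lowest young liver and the highest other array was 9.36 for Hsd3b5 and 5.77 for Elovl3, but 0.37 for Cyp7b1, whose young kidney levels were 4.82, 5.04 and 5.28. For Cyp7b1 the gap turned to -0.14 with spike-in scaling and -0.017 with quantile normalization. Kidney came second for 6 of the genes, and for Nudt7 and Elovl3 the next array was from WAT. Outside the liver Hsd3b5 was well above background on 2 kidney arrays, 1 lung array and 1 WAT array, with no level over -4.01.

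**Figure D4:**
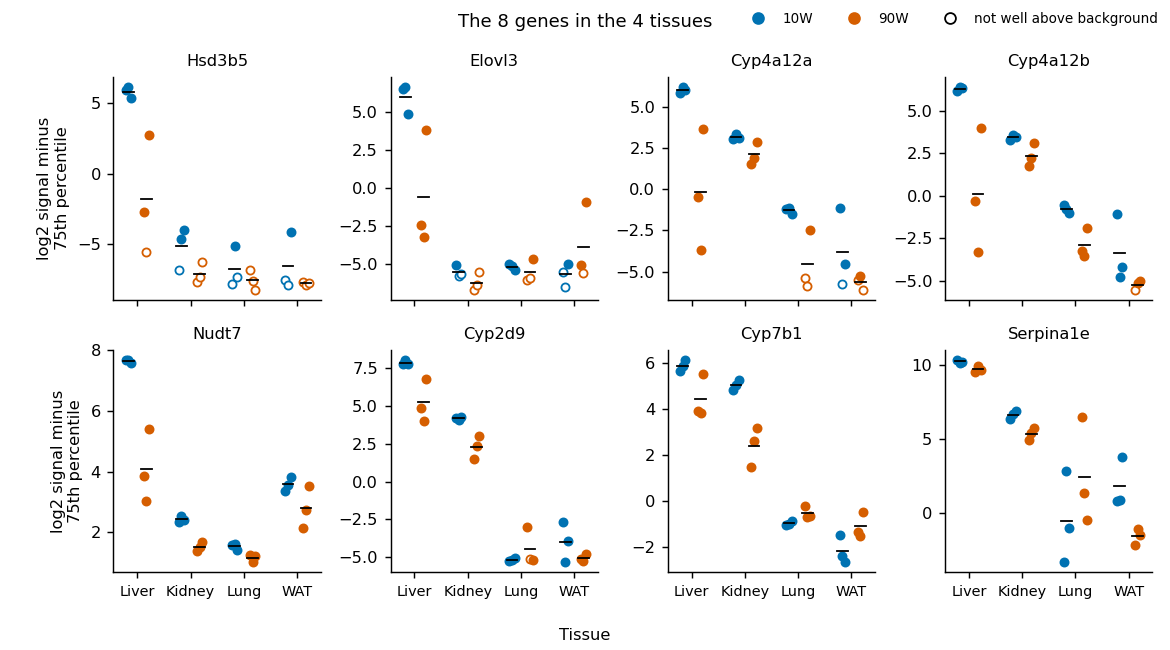
Levels of each gene in the 4 tissues at 10W (blue) and 90W (orange), with 1 point per array, the mean as a line and open points where the probe was not well above background. Young liver is highest for all 8, and in kidney the aged points of 6 genes lie below the young ones.

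The kidney values were not used to choose the genes, although whether the same mice gave liver and kidney is not known. The 6 genes tested there were well above background on all 6 arrays, and all 6 fell, beside 42.6% of all genes tested. Cyp7b1 had 1.46, 2.61 and 3.15 in aged kidneys, below all young ones, and fell by 2.64 (SE 0.42, adjusted p = 0.00242 in limma). Cyp2d9 had 4.22, 4.06 and 4.28 in young and 1.52, 2.38 and 3.01 in aged kidneys and fell by 1.88 (SE 0.36, adjusted p = 0.00467). Serpina1e fell by 1.28 (adjusted p = 0.00539) and Nudt7 by 0.90 (adjusted p = 0.000839). Cyp4a12a had 3.07, 3.35 and 3.12 in young and 1.54, 1.92 and 2.88 in aged kidneys and fell by 1.07 (adjusted p = 0.0316). Cyp4a12b fell by 1.09 (adjusted p = 0.0274). The Cyp4a12 calls were lost without any one mouse other than aged replicate 3, where adjusted p lay between 0.0502 and 0.0908, and also under quantile normalization, spike-in scaling, the fit of all 24 arrays and the methods' t-test. Hsd3b5 and Elovl3 were too dim to be tested.

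The aged kidneys also kept one order. In all 6 genes replicate 1 was lowest and replicate 3 highest, an order found in 28.5% of all genes tested and 48.3% of those called lower. The tubule markers Slc34a1, Umod and Kap shared the order and fell as well, by 1.24, 1.03 and 0.77. The podocyte marker Nphs1, the other of the 4 kidney markers, rose by 0.32 (adjusted p = 0.0484) and did not share the order. The median change of all genes in the kidney was -0.23, and 0.12 with spike-in scaling. Under that scaling 4 of the 6 genes were called lower, beside 16.6% of all genes tested, with 29.1% called higher. The part of tubule content was not tested.

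In lung and WAT none of the 7 genes tested in each was called by limma. At an unadjusted p under 0.05 there were 4 in the lung and 2 in WAT. The share of all genes at that threshold is not given here, so these counts cannot be read as an excess. The methods' t-test called none after adjustment. Of all genes tested in the lung 2.89% were called lower and 2.72% higher, and in WAT 0.579% and 2.01%. In the lung Cyp4a12b had -0.55, -0.75 and -1.01 in young and -3.25, -3.56 and -1.89 in aged mice, a difference of -2.13 (adjusted p = 0.0505), and was called without aged replicate 3 (-2.63, adjusted p = 0.0189). Cyp4a12a differed by -3.27 (adjusted p = 0.0843), with aged replicate 3 the only aged lung where it was well above background. Of the 4 fat markers, Plin1 alone was called in the lung, with a difference of -4.89 (adjusted p = 0.0291 in limma). Adipoq was 2.76, 2.87 and 1.68 in young lungs and -6.86, -7.54 and -1.18 in aged ones. Fabp4 and Lep differed by -2.40 and -0.04. The part of fat content in the Cyp4a12 levels was not tested. Cyp7b1 differed by 0.46 in the lung and 1.08 in WAT. Serpina1e reached 6.49 in aged lung replicate 1, against -3.31 to 2.81 on the other lung arrays. On that array albumin (Alb) was 6.68 and fibrinogen (Fgb) 4.35, against at most 1.08 and -1.93 elsewhere in the lung, and all 12 hepatocyte markers were well above background. Their part in the Serpina1e level was not tested. In WAT, Serpina1e had 0.84, 0.89 and 3.81 in young and -2.17, -1.06 and -1.45 in aged mice (adjusted p = 0.106). Young WAT replicate 3, the array with 3.81, had all 12 hepatocyte markers well above background. Of these markers Ttr and Fgb were called lower in WAT, by 4.63 and 4.41 (adjusted p = 0.0464 and 0.0428 in limma). The others tested there were not called. The part of hepatocyte RNA in the WAT levels of Serpina1e was not tested. Cyp4a12a was -1.16 in young WAT replicate 1 and at most -4.51 on the other WAT arrays. The summed level of the 4 kidney markers was 0.62 on that array and at most -2.10 on the others, and its part was not tested.

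**Figure D5:**
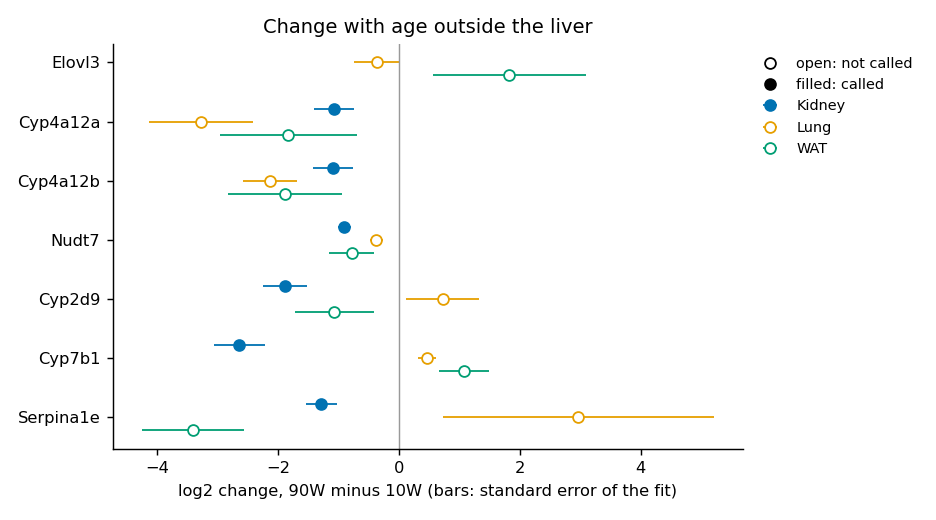
Log2 change (90W minus 10W) with its standard error for the 7 genes tested in at least 1 of kidney, lung and WAT, each from 3 mice per age; filled points passed the threshold. The filled points are the 6 kidney changes, from -2.64 to -0.90.

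The change with age was compared between kidney, lung and WAT in a fit of those 18 arrays, in which 6 of the genes could be tested. The change of Cyp7b1 was lower in kidney, where it fell, than in lung, where it differed by 0.46 (difference of changes -3.10, SE 0.55, adjusted p = 0.00144 in limma) and than in WAT, where it differed by 1.08 (-3.72, SE 0.55, adjusted p = 0.000476). Cyp2d9 changed by -2.61 (SE 0.88) in kidney relative to lung (adjusted p = 0.0417). This last call was lost with quantile normalization, spike-in scaling or no filter, and when any of 10 of the 18 arrays (1 at a time) was left out, while those of Cyp7b1 held under every alternative run. Of all genes tested, 25.4% differed between kidney and lung, 27.7% between kidney and WAT and 3.03% between lung and WAT. Cyp4a12a, Cyp4a12b, Serpina1e and Nudt7 were not called in any of these contrasts. The Serpina1e difference between lung and WAT of 6.37 had an SE of 2.21 (adjusted p = 0.134).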

How the data were processed

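Per the file headers, the authors read the scans with Agilent Feature Extraction 11.0.1.1, which wrote for each spot a processed signal, an intensity after background subtraction in arbitrary units and not scaled between arrays, on a mouse design of build mm9 (the methods name a human kit). The deposited files name probes by accession. Without versions, 32994 of 56605 probes (58.3%) matched a symbol of RefSeq on GRCm38.p6, which was used for names and neighbours only. Marked spots (1841) were left out and none was saturated. Depth is signal over background.

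From these intensities the log2 processed signal was computed, spots of a probe were averaged and each array's 75th percentile was subtracted. In each tissue a probe had to be called well above background on 3 or more of the 6 arrays, and the brightest probe stood for a gene. Ages were compared by limma 3.58.1 (lmFit, eBayes, R 4.3.3) on the 6 arrays of the tissue, and age changes between tissues on the 18 arrays outside the liver. An "at least" fold uses, for each dim array, the higher of its own value and the lowest signal well above background there. The fit was tested on simulated data.

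The 8 genes and all lists were chosen with earlier results of these data known. All 8 genes, any gene of a list of up to 14, and in longer lists the 4 called genes with the largest change each way and the 2 largest not called were named; neighbours and markers beside a result, and further list genes (Hsd3b7, Elovl5, Cyp7a1), were named after their values were seen. Whether 1 mouse gave several tissues is not known, and p-values measure the spread between these mice. Replicate numbers do not pair young and aged mice. Alternatives were normexp background (offset 16, on the median signal), quantile normalization, spike-in scaling, centring on hepatocyte markers, no filter, the mean of probes, all 24 arrays, a replicate block, the methods' t-test and each mouse left out.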

Additional observations from a re-analysis of the deposited data

Results flagged for a closer look

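The change of Cyp7b1 with age differed between tissues, by -3.10 between kidney and lung and by -3.72 between kidney and WAT. All 3 aged kidneys lay below the young ones. Cyp2d9 differed by -2.61 between kidney and lung, a call that was lost when any of 10 of the 18 arrays was left out. In the lung every aged level of Cyp7b1 lay above every young one, but the change of 0.46 was not called (adjusted p = 0.119 in limma). In the liver every aged level lay below the young ones, as it did for 33.1% of all genes. This difference between lung and liver was not tested.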

How the results depend on the processing

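No change of the 8 genes in liver, kidney or WAT turned sign under any alternative. In the lung Cyp2d9 (0.72) ran from -0.0079 (without aged replicate 1) to 1.104 with each mouse left out, and Elovl3 went from -0.36 to 0.13 with normexp background, neither called. The methods' t-test called 0 of the 8 genes in the liver (7 at an unadjusted p under 0.05, with no share of all genes given). It called 1 male-biased, 2 female-biased, 0 signalling and 4 family genes, beside 6.4% of all genes lower and 4.73% higher. With each mouse left out in turn, the liver counts ran from 1 to 7 for the 8 genes, 2 to 10 for male-biased, 4 to 8 for female-biased, 0 to 2 for signalling and 1 to 20 for family genes. Outside the liver they ran from 4 to 6 in kidney, 0 to 2 in lung and 0 to 0 in WAT, and the differences between tissues from 2 to 3. Without any one young liver, or without aged replicate 1, 1 of the 8 genes (Nudt7) was called. Of all genes, 4.33%, 3.57% and 11.6% were called lower without young replicates 1, 2 and 3, and 9.41% without aged replicate 1. Quantile normalization called 0 signalling genes, and spike-in scaling 1, higher and not among the main calls. Spike-in scaling left 8 family genes and hepatocyte centring 5. These scalings moved the median of all liver genes from -0.20 to -0.04 and 0.23, and all liver calls from 4749 lower and 2928 higher to 854 and 2749, and 615 and 4667. In the lung 1 gene was called lower with normexp background and 1 with spike-in scaling, beside 1.88% and 4.53% of all genes. The fit of all 24 arrays called 2 of the 6 genes tested in the kidney, beside 28.8% of all genes lower. It called 9 male-biased genes in the liver, beside 28% lower. With the replicate block, counts were 4 female-biased, 0 signalling and 6 family genes, 7 of the 8 genes in liver and all 6 tested in kidney. Of all genes, 2.26% were then called lower and 3.83% higher in liver, and 40.6% and 20.1% in kidney. The block pairs nothing here, since same-numbered samples correlated between -0.166 and 0.181. The order of the aged livers held in 7 of the 8 genes under every scaling run, and young liver lay above all other tissues for 7 of 8 with spike-in scaling or quantile normalization. The causes were not tested. Signal over background limits Hsd3b5 and Elovl3 outside the liver.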
